A study of Mus musculus with 38 samples.

Results

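This account follows 9 genes that are used as markers of the trophoblast, the outer lineage of the early embryo that builds the placenta, through 14 RNA libraries of mouse embryonic stem (ES) cells. They are the transcription factor genes Tfap2a, Elf5, Hand1, Gata2 and Gata3 and the keratin genes Krt7, Krt8, Krt18 and Krt19. They were taken by symbol from a table of 25965 genes, and each symbol named 1 row.

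The cells were E14, an XY line of 129/Ola background, grown without feeder cells on gelatin and passaged every 2 days. All cells received leukaemia inhibitory factor (LIF, the L of each label). 2i/L was serum-free N2B27 medium with 1 µM of the MEK inhibitor PD03259010, spelled as in the labels, and 3 µM of the GSK3 inhibitor CHIR99021. MEKi/L held the first inhibitor alone and GSK3i/L the second alone, both in the same N2B27 base. S/L was medium with fetal bovine serum and no inhibitor, in which all cells had also been plated before the change of medium. At 8 days there were 3 libraries of each medium. A further 2 libraries of GSK3i/L, replicates 2 and 3, came from 24 days ("GSK3i/L 24 d", while "GSK3i/L" alone means 8 days). All of them come from 1 cell line. The labels speak of biological replicates without saying whether the cultures were separate, so p-values reflect the spread among these libraries alone, which may be technical. In each comparison of a serum-free medium with S/L, the base medium and the inhibitors changed together and cannot be told apart. The 24 bisulfite samples of the series were not analysed here.

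Trophoblast cells arise from the trophectoderm of the blastocyst, and ES cells, which come from the inner cell mass, rarely form them. GATA2, GATA3 and AP-2alpha (encoded by Tfap2a) act in the trophoblast gene network, ELF5 maintains trophoblast stem cells, and HAND1 is needed for trophoblast giant cells. Elf5 is known as a gene whose promoter is methylated and silent in ES cells. Keratins form filaments only as partners of a type II and a type I chain: Krt7 and Krt8 encode type II chains, Krt18 and Krt19 type I chains, and these 4 belong to simple epithelia, the trophectoderm included.

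Levels are reads per 1000000 reads (RPM), the linear form of the log2 values that the authors deposited. In 8 libraries (2i/L, MEKi/L and GSK3i/L 24 d) the values were whole multiples of 1 read, with totals of 10550000 to 15760000 reads. The columns of GSK3i/L and S/L had been matched to 1 shared distribution, and their depths could only be approximated, at 8080000 to 18410000 reads. Read numbers given for GSK3i/L and S/L are likewise approximate. A floor of 3 reads corresponded to between 0.163 and 0.371 RPM per library. Summed over 10 ES cell identity genes, Pou5f1, Nanog and Sox2 among them, levels were 6211 to 6739 RPM in 2i/L, 5748 to 6695 RPM in MEKi/L, 6389 to 6631 RPM in GSK3i/L 24 d, 5971 to 6243 RPM in GSK3i/L and 5914 to 6151 RPM in S/L. Relative to S/L, 6 of these 10 genes rose and 3 fell in 2i/L, 6 and 0 in MEKi/L and 3 and 0 in GSK3i/L. Of all tested genes, 39.1% rose and 24.4% fell in 2i/L, 26.1% and 14.7% in MEKi/L, and 16.8% and 14.4% in GSK3i/L. The mean log2 level of 40 long genes minus that of 40 short ones, a score that can move with coverage and RNA quality, was −0.17 to 0.02 in 2i/L and −3.26 to −2.79 in S/L. It was 0.26 in MEKi/L replicate 1, apart from −2.23 and −1.88 in replicates 2 and 3, and 0.00 in GSK3i/L replicate 1, apart from −2.0 and −2.99. It was −3.98 and −3.43 in GSK3i/L 24 d, below every library of GSK3i/L at 8 days. Calls changed by fits with this score as a covariate, or without both replicates 1, are given in part by gene and in part only as counts.

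The stretches before the starts of 3 genes are shown first because Krt8 and Krt18, the classic filament partners, are neighbours whose levels parted in these media, and because Tfap2a had the largest rise. Krt8 lies on chromosome 15 at 101996711 to 102004342 on the minus strand, and Krt18 at 102028216 to 102032026 on the plus strand. Their gene starts face each other across 23873 bases with no other gene of the table between them. Tfap2a lies on chromosome 13 at 40715675 to 40733823 on the minus strand. Each line gives the 250 bases upstream of a RefSeq gene start on build GRCm38.p6, 5′ to 3′ on the gene's strand, at chr15:102004343-102004592, chr15:102027966-102028215 and chr13:40733796-40734045. The Krt8 and Krt18 starts coincide with the deposited gene ends, and the Tfap2a start shown lies 28 bases from the deposited end. Capitals mark matches, on either strand, to 1 of 7 motifs: AGATAA for GATA factors, GCCNNNGGC for AP-2, TGACTCA for AP-1, CCGGAA for ETS factors, CTTTGA for TCF/LEF factors, GGGCGG for SP factors and CATCTG for an E-box.
Krt8: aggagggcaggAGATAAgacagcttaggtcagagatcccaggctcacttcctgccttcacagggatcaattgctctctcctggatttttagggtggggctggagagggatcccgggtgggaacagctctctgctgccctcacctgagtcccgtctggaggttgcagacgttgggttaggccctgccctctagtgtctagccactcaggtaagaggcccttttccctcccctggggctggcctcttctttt
Krt18: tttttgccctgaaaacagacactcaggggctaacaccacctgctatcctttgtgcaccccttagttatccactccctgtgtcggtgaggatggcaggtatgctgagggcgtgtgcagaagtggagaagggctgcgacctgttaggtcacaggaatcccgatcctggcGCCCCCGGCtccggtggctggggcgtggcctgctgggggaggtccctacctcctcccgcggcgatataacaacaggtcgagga
Tfap2a: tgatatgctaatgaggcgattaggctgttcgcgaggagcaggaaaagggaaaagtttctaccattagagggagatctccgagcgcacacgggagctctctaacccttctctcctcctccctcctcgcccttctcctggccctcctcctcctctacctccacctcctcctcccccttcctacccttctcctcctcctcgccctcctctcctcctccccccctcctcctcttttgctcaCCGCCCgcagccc
The Krt8 stretch holds 1 AGATAA, which occurs in 9.99% of 32851 promoters of this length, and 3 CpG. The Krt18 stretch holds 1 GCCNNNGGC, found in 13.7% of promoters, and 12 CpG, against a median of 6 over all promoters. Tfap2a carries 1 GGGCGG, on the opposite strand here and present in 32.7% of promoters, and 10 CpG. Of all promoters, 37.8% had no more CpG than Krt8, 68.5% no more than Krt18 and 64.4% no more than Tfap2a. The table holds another Tfap2a start, 1097 bases from the deposited end and not shown, with 10 CpG and 1 GGGCGG. CpG counts of the remaining stretches of these genes were 2 and 8 for Elf5, 22 and 24 for Gata2, 19 for Gata3 and 16 for Krt7. These matches describe letters and are not evidence of binding.

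Of the 9 genes, 7 reached the level needed for testing, at least 0.5 RPM in at least 3 libraries, and Elf5 and Hand1 did not. Tests used limma on log2 values of 14980 genes, and a gene passed at a Benjamini-Hochberg adjusted p under 0.05. Log2 fold changes carry standard errors, and levels are means ± SD.

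Tfap2a was the member that set 2i/L apart from every other medium. It was at 18.7, 21.3 and 17.3 RPM in the 2i/L libraries, 3.17, 2.81 and 3.32 RPM in MEKi/L, 4.25 and 4.23 RPM in GSK3i/L 24 d, 4.78, 3.57 and 4.89 RPM in GSK3i/L and 2.11, 1.81 and 1.19 RPM in S/L. The lowest 2i/L library stood far above the highest library of any other group, and all S/L libraries lay below all others. Against S/L, Tfap2a rose in 2i/L by a log2 fold change of 3.52 ± 0.24 (limma adjusted p = 9.8e-08), an 11.5-fold difference. It also rose in GSK3i/L (1.40 ± 0.24, adjusted p = 0.00084) and in MEKi/L (0.90 ± 0.24, adjusted p = 0.0098). Relative to each single inhibitor it was higher in 2i/L too, by 2.62 ± 0.24 over MEKi/L (adjusted p = 1.5e-05) and by 2.12 ± 0.24 over GSK3i/L (adjusted p = 3.4e-05). Among the single-inhibitor groups the order was not resolved: MEKi/L against GSK3i/L gave −0.50 (95% confidence interval −1.02 to 0.02, adjusted p = 0.19) and 24 against 8 days of GSK3i/L gave −0.04 (−0.63 to 0.54, adjusted p = 0.92). The MEKi/L rise missed the threshold when only these 2 groups were fitted (adjusted p = 0.052), while the calls that involve 2i/L or GSK3i/L at 8 days against S/L held in every alternative run.

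Gata2 varied widely within several groups and was not high in 1 medium alone. It was at 3.43, 5.14 and 17.3 RPM in 2i/L, 2.35, 1.73 and 1.52 RPM in MEKi/L, 7.22 and 22.1 RPM in GSK3i/L 24 d, 1.09, 18.2 and 0.324 RPM in GSK3i/L and 0.763, 1.13 and 0.892 RPM in S/L. All 2i/L and 24-day libraries lay above all MEKi/L and S/L libraries. The 3 GSK3i/L libraries at 8 days ran from the lowest Gata2 level of the 14 libraries to the highest but 1, with replicate 2 far above the others. Gata2 lies on chromosome 6 at 88193891 to 88207030 on the plus strand. It rose in 2i/L relative to S/L by a log2 fold change of 2.88 ± 1.05 (limma adjusted p = 0.027). That call was lost without 2i/L replicate 3 (2.20, adjusted p = 0.12), without S/L replicate 1 (adjusted p = 0.072) or 3 (adjusted p = 0.059), and with that score of long and short genes as a covariate (2.03, adjusted p = 0.37). Conversely, without GSK3i/L replicate 2 the 2i/L libraries were higher than GSK3i/L by 3.50 (adjusted p = 0.0033), against 1.86 (adjusted p = 0.19) with it, and the 24-day libraries were higher than the 8-day ones by 4.41 (adjusted p = 0.0054), against 2.76 (adjusted p = 0.1). In bulk RNA, a few cells with much Gata2 and many cells with little cannot be told apart, and the same holds for each gene below.

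Gata3, a close relative of Gata2, was at the edge of detection and was lowest where the GSK3 inhibitor acted alone. Its reads numbered 8, 6 and 6 in 2i/L (0.61, 0.474 and 0.397 RPM), 20, 24 and 14 in MEKi/L (1.27, 1.73 and 1.33 RPM), 0 and 0 in GSK3i/L 24 d, 7, 0 and 0 in GSK3i/L (0.47 RPM in replicate 1) and 8, 8 and 13 in S/L (0.763, 0.647 and 1.19 RPM). The read numbers above 0 in GSK3i/L and S/L are approximations from the order of levels. The MEKi/L libraries lay above all others, and 4 of the 5 GSK3i/L libraries of both times had no read, a limit of at most 0.371 RPM per library. Gata3 fell in GSK3i/L relative to S/L (limma adjusted p = 0.0073) and was higher in MEKi/L than in GSK3i/L (adjusted p = 0.0014). Fitted log2 fold changes of −2.48 ± 0.59 and 3.25 ± 0.59 depend on the value that stands for 0 reads and are no measure of size. On the log2(RPM + 0.5) scale, the second became 1.63. The call against S/L missed the threshold with these 2 groups alone (adjusted p = 0.053). Gata3 also passed as higher in 2i/L than in GSK3i/L (adjusted p = 0.047), which was lost on leaving out any 1 library except GSK3i/L replicate 1, and in 5 other alternatives (adjusted p up to 0.32). Against S/L it did not pass in 2i/L (−0.78, interval −2.06 to 0.49) or MEKi/L (0.77, −0.50 to 2.04). At chromosome 2, 9857078 to 9890034, the deposited gene overlaps 3 other gene models with at most 0.127 RPM in any library.

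Elf5 and Hand1 stayed near 0 reads in all media. Elf5 (chromosome 2, 103411688 to 103450989) had 7 reads over the 14 libraries: 3, 0 and 0 in 2i/L, 2, 0 and 1 in MEKi/L, 1 and 0 in GSK3i/L 24 d, and 0 in every library of GSK3i/L and S/L. No library exceeded the floor of 3 reads, so no difference between media was detectable at this depth. Hand1 (chromosome 11, 57828705 to 57832818) had 0, 0 and 1 reads in 2i/L, 9, 6 and 1 in MEKi/L, 0 in the 5 libraries of GSK3i/L at both times and 4, 4 and 1 in S/L. The read numbers of S/L are approximations from the order of levels. The highest level of Hand1 was 0.571 RPM in MEKi/L replicate 1. The zeros limit Hand1 to 0.163, 0.229 and 0.371 RPM in GSK3i/L and to 0.228 and 0.264 RPM in GSK3i/L 24 d. All these limits except that of GSK3i/L replicate 3 lay below the 0.344 and 0.306 RPM of S/L replicates 1 and 2. None lay below the 0.0935 RPM of S/L replicate 3. Every S/L library was above these zeros, but the difference was not tested. The floors cover counting error only.

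**Figure D1:**
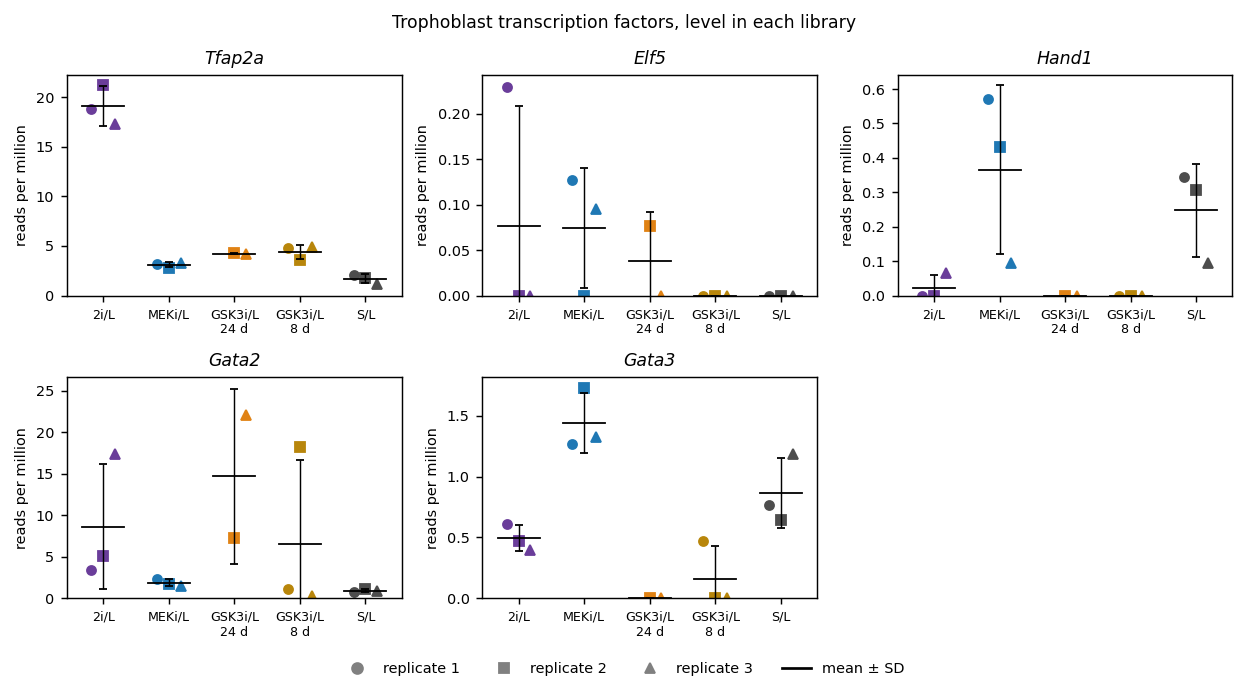
Level of each of the 5 trophoblast transcription factor genes in RPM (y axis, linear, own scale per gene) by medium (x axis). Points are libraries, marked by replicate number, and bars are means ± SD. Tfap2a lies between 17.3 and 21.3 RPM in 2i/L and at most at 4.89 RPM elsewhere. Gata2 varies widely within 2i/L and within GSK3i/L at both times, and Elf5 and Hand1 reach at most 0.571 RPM.

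Krt18 and Krt19, the type I keratins, both fell in every serum-free medium at 8 days. Krt18 was at 4.65, 6.48 and 4.10 RPM in 2i/L, 6.35, 11.2 and 6.16 RPM in MEKi/L, 25.6 and 11.3 RPM in GSK3i/L 24 d, 5.97, 6.94 and 6.59 RPM in GSK3i/L and 51.8, 21.9 and 44.2 RPM in S/L. All 8-day serum-free libraries lay below all S/L libraries, and of the 24-day libraries replicate 2 reached into the S/L range. Against S/L, the log2 fold changes of Krt18 were −2.89 ± 0.36 in 2i/L (limma adjusted p = 1.7e-05), −2.28 ± 0.36 in MEKi/L (adjusted p = 0.00024) and −2.51 ± 0.36 in GSK3i/L (adjusted p = 0.00019). The 3 media were not resolved from each other (adjusted p = 0.25, 0.43 and 0.75). At 24 days of GSK3i/L Krt18 was higher than at 8 days by 1.39 ± 0.40 (adjusted p = 0.034). That call was lost without 24-day replicate 2 (0.80, adjusted p = 0.32), without 8-day replicate 1 (adjusted p = 0.098) or 2 (adjusted p = 0.059), and in 6 of 10 other alternatives, with adjusted p up to 0.21.

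Krt19 (chromosome 11, 100140810 to 100148665), whose product can stand in for keratin 18 as a partner of keratin 8, was at 1.98, 1.90 and 1.06 RPM in 2i/L, 4.51, 6.55 and 3.41 RPM in MEKi/L, 2.73 and 3.08 RPM in GSK3i/L 24 d, 2.48, 1.17 and 2.63 RPM in GSK3i/L and 19.5, 8.04 and 18.1 RPM in S/L. Every S/L library was above every serum-free one, and S/L replicate 2 was the lowest of its group here as for Krt18 and Krt8. Relative to S/L the log2 fold changes were −3.16 ± 0.41 in 2i/L (limma adjusted p = 2.5e-05), −2.85 ± 0.41 in GSK3i/L (adjusted p = 0.00021) and −1.61 ± 0.41 in MEKi/L (adjusted p = 0.0074). The same S/L libraries serve all 3 comparisons. Krt19 was also lower in 2i/L than in MEKi/L (−1.55 ± 0.41, adjusted p = 0.025), a call lost without 2i/L replicate 2 (adjusted p = 0.05) or 3 (−1.26, adjusted p = 0.11), without MEKi/L replicate 2 (−1.31, adjusted p = 0.11) or after quantile normalization (adjusted p = 0.06). MEKi/L against GSK3i/L gave 1.24 ± 0.41, just outside the threshold (adjusted p = 0.052), and passed with the score as a covariate (adjusted p = 0.024) and without GSK3i/L replicate 1 (adjusted p = 0.046) or 3 (adjusted p = 0.037). The falls of Krt18 and Krt19 against S/L passed in all alternatives run.

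Krt8, the type II partner of both, did not follow them in 2i/L. It was at 31.9, 29.3 and 15.2 RPM in 2i/L, 19.0, 12.9 and 8.06 RPM in MEKi/L, 13.1 and 7.75 RPM in GSK3i/L 24 d, 11.4, 10.6 and 6.94 RPM in GSK3i/L and 33.0, 13.4 and 28.7 RPM in S/L. The 2i/L and S/L libraries covered the same range, and all GSK3i/L libraries lay below both. Between 2i/L and S/L the log2 fold change was 0.06 ± 0.40, with an interval from −0.80 to 0.91 (limma adjusted p = 0.91), and the sign turned under 3 alternatives, to −0.57 at the lowest, and in 3 fits without 1 library. Krt8 fell in GSK3i/L relative to S/L (−1.31 ± 0.40, adjusted p = 0.025) and was higher in 2i/L than in GSK3i/L (1.36 ± 0.40, adjusted p = 0.022). The first was lost in 4 of 6 fits that left out 1 library (without S/L replicate 1 or 3 and GSK3i/L replicate 2 or 3, adjusted p up to 0.11). The second was lost without 2i/L replicate 1 or 2 or GSK3i/L replicate 3 (adjusted p up to 0.087) and after centring or quantile normalization (1.06 in both, adjusted p = 0.068 and 0.076), and with the score as a covariate (1.02, adjusted p = 0.092). In MEKi/L it did not pass against S/L (−0.89 ± 0.40, adjusted p = 0.088) but it passed after centring (−1.07, adjusted p = 0.048) or quantile normalization (−1.09, adjusted p = 0.044), with the score as a covariate (−1.26, adjusted p = 0.03), with the replicate number as a block (−0.89, adjusted p = 0.042) and without both libraries of differing score (−1.20, adjusted p = 0.037). It also passed without S/L replicate 2 (−1.29, adjusted p = 0.024) or MEKi/L replicate 1 (−1.20, adjusted p = 0.048).

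**Figure D2:**
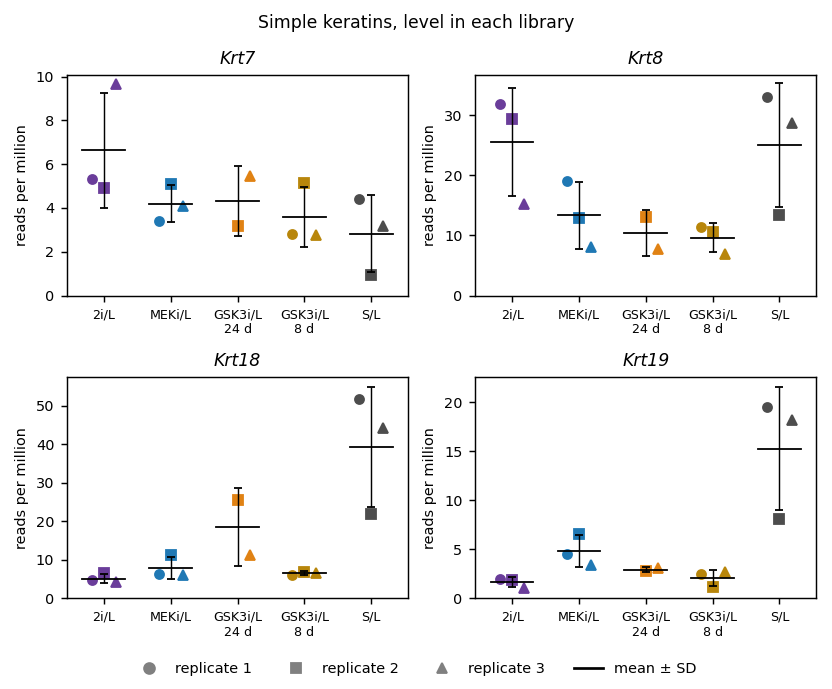
Level of the 4 simple keratin genes in RPM (y axis, linear, own scale per gene) by medium (x axis). Points are libraries and bars are means ± SD. Krt18 and Krt19 are highest in S/L, where replicate 2 is the lowest of 3, while Krt8 is at similar levels in 2i/L and S/L.

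The ratio of Krt8 to Krt18 reads within a library does not depend on depth or on a scaling of the whole column. The matching of the S/L and GSK3i/L columns to a shared distribution is not such a scaling. The ratio depends on the lengths of both transcripts, so only its change between libraries is described. It was 6.87, 4.52 and 3.71 in 2i/L, 3.00, 1.16 and 1.31 in MEKi/L, 0.510 and 0.688 in GSK3i/L 24 d, 1.91, 1.53 and 1.05 in GSK3i/L and 0.637, 0.611 and 0.649 in S/L. All 2i/L libraries were above all others, the S/L libraries were close to each other, and the 24-day libraries lay on both sides of them. S/L replicate 2, the lowest S/L library in both genes, was not apart in their ratio. The mean log2 ratio was higher than in S/L by 2.95 in 2i/L, by 1.39 in MEKi/L and by 1.20 in GSK3i/L, without overlap. Each gave p = 0.1 in a two-sided exact permutation test, the smallest p that 3 against 3 libraries allow, so none could pass. At 24 against 8 days of GSK3i/L the difference was −1.29 (exact permutation p = 0.2, the smallest possible with 2 against 3). The ratio was chosen after the values were seen. Its link to the score of long and short genes was not tested. Within MEKi/L, GSK3i/L and GSK3i/L 24 d the ratio followed the order of that score. Within 2i/L it ran in the reverse order, over scores of only −0.17 to 0.02. Within S/L, with scores of −3.26 to −2.79, it followed neither order. Scores ran from −2.23 to 0.26 in MEKi/L and from −2.99 to 0.00 in GSK3i/L. The score does not overlap between 2i/L and S/L. Both genes belong to families with processed copies elsewhere in the genome, and how reads that fit several places were counted is not given in the sources used here.

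**Figure D3:**
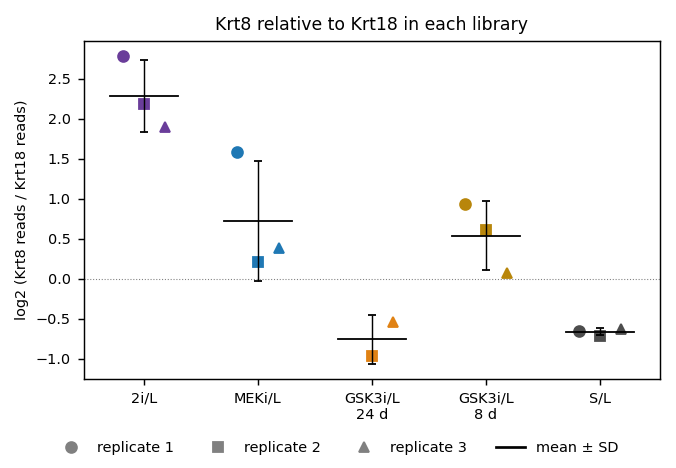
Log2 of the ratio of Krt8 to Krt18 reads (y axis) in each library by medium (x axis), with means ± SD as bars. The 2i/L libraries lie between 1.89 and 2.78 and the S/L libraries between −0.71 and −0.62.

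Krt7 (chromosome 15, 101411043 to 101430313), a type II keratin of simple ducts and of trophoblast, was higher in every 2i/L library than in every S/L library, while the other comparisons overlapped. It was at 5.33, 4.90 and 9.65 RPM in 2i/L, 3.43, 5.11 and 4.08 RPM in MEKi/L, 3.19 and 5.46 RPM in GSK3i/L 24 d, 2.81, 5.15 and 2.77 RPM in GSK3i/L and 4.41, 0.925 and 3.16 RPM in S/L. Replicate 3 of 2i/L was the highest library, as it was for Gata2 within that group, and S/L replicate 2 the lowest. Krt7 rose in 2i/L relative to S/L by 1.43 ± 0.49 (limma adjusted p = 0.021), and this was lost without 2i/L replicate 3 (1.12, adjusted p = 0.092), without S/L replicate 2 (0.76, adjusted p = 0.11), after centring (1.12, adjusted p = 0.062) and with the score as a covariate (adjusted p = 0.075). The other 6 comparisons gave log2 fold changes of 0.28 to 0.89, with adjusted p from 0.18 to 0.78.

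The counts of the 7 tested members that passed are read against the share of all genes that did. Against S/L, 5 of 7 passed in 2i/L, where 63.6% of all 14980 genes passed: 3 were higher (Tfap2a, Gata2 and Krt7; 39.1% of all genes) and 2 lower (Krt18 and Krt19; 24.4%). In MEKi/L 3 of 7 passed, against 40.8% of all genes, with Tfap2a higher (26.1% of all genes) and Krt18 and Krt19 lower (14.7%). In GSK3i/L 5 of 7 passed, against 31.1%, with Tfap2a higher (16.8%) and Gata3, Krt8, Krt18 and Krt19 lower (14.4%). Of these counts, those in MEKi/L and 2i/L are near the background and are no result about the members. The count in GSK3i/L was above the background, but it was not tested. Its Krt8 and Gata3 calls were lost in the alternatives given above, and the members were chosen with earlier results of these data known. Between 2i/L and MEKi/L 2 of 7 passed, against 12.9% of all genes, with Tfap2a higher (6.81%) and Krt19 lower (6.11%). Between 2i/L and GSK3i/L 3 of 7 passed, against 27.8%, with Tfap2a, Gata3 and Krt8 higher (19.8%) and 0 lower (8.02%). Between MEKi/L and GSK3i/L 1 of 7 passed, against 17.8%, with Gata3 higher (12.2%) and 0 lower (5.65%). At 24 against 8 days of GSK3i/L 1 of 7 passed, against 17.5%, with Krt18 higher (4.3%) and 0 lower (13.2%). Both counts of 1 of 7 are near the background and are no result about the members. The median log2 fold change of all tested genes was 0.28 for 2i/L against S/L and −0.03 after centring, and the split of 5863 higher and 3658 lower genes became 4125 and 4787. Krt8 in that comparison, at 0.06 or −0.25 after centring, has no fixed direction.

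**Figure D4:**
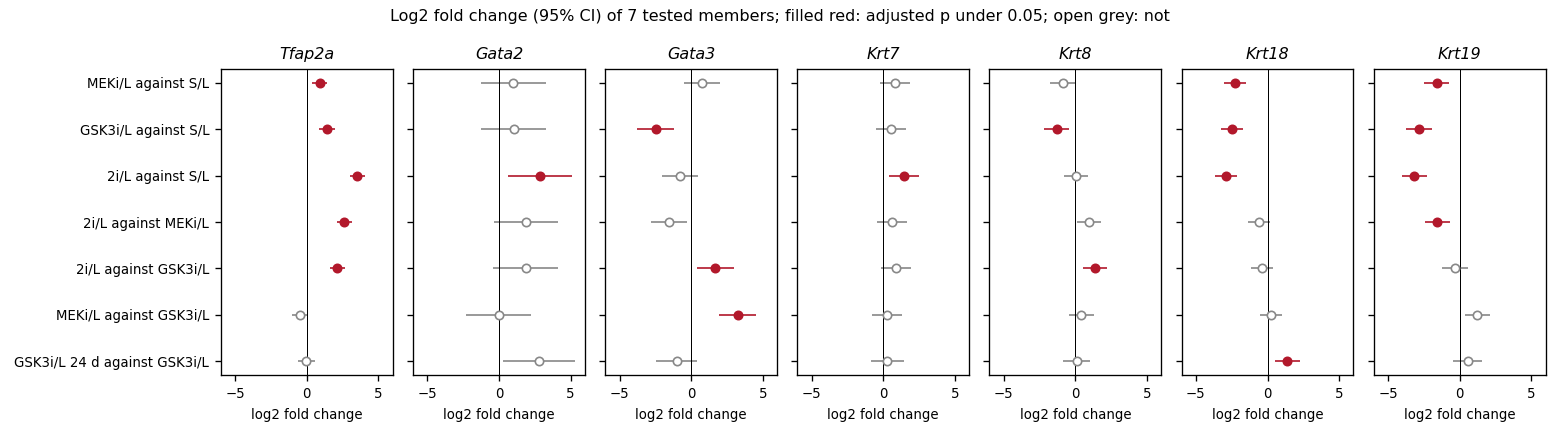
Log2 fold change of each of the 7 tested genes (x axis, with 95% confidence interval) in the 7 comparisons (rows). Filled red points passed at an adjusted p under 0.05 and open grey points did not. Tfap2a lies to the right in all 5 comparisons of 2i/L or of another medium with S/L, and Krt18 and Krt19 lie to the left in those against S/L.

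Other trophoblast and placental genes did not move as one group. Of 28 listed genes 17 were tested: 7 rose and 6 fell in 2i/L relative to S/L, 8 rose and 2 fell in MEKi/L, and 3 rose and 5 fell in GSK3i/L. Median log2 fold changes were 1.11, 0.96 and −0.43, beside 0.28, 0.17 and 0.06 over all genes, of which 39.1% rose and 24.4% fell in 2i/L, 26.1% and 14.7% in MEKi/L, and 16.8% and 14.4% in GSK3i/L. Tead4, which acts upstream of trophectoderm fate, rose to 59.9 ± 5.69 RPM in 2i/L, 29.7 ± 11.1 in MEKi/L and 34.3 ± 12.5 RPM in GSK3i/L, against 5.34 ± 1.18 RPM in S/L (log2 fold changes 3.51, 2.44 and 2.64, limma adjusted p at most 2.1e-05). Eomes, a factor of trophoblast stem cells and of early mesendoderm, was at 5.52 ± 1.37 RPM in 2i/L, 3.37 ± 1.03 in MEKi/L, 6.38 ± 2.82 RPM in GSK3i/L and 2.31 ± 0.20 RPM in S/L. Cdx2, a defining trophectoderm factor, was at 1.37 ± 0.374 RPM in 2i/L, at 0 in MEKi/L, at 0.562 ± 0.328 RPM in GSK3i/L and at 0.196 ± 0.22 RPM in S/L. The placental hormone genes Prl3d1 and Prl3b1 and the spongiotrophoblast marker Tpbpa had no read in any library. Peg10 fell in all 3 media, from 124 ± 15.5 RPM in S/L. It was at 15.3 ± 2.32 RPM in 2i/L, 9.26 ± 3.5 in MEKi/L and 29.8 ± 20.8 RPM in GSK3i/L. Its log2 fold changes were −3.03, −3.81 and −2.26 (limma adjusted p at most 0.00083). The X-linked homeobox gene Rhox9 separated the single inhibitors, at 11.7 ± 2.44 in MEKi/L and 0.744 ± 0.16 RPM in GSK3i/L (3.98 ± 0.32, adjusted p = 1.6e-06), with 2.92 ± 1.06 RPM in 2i/L and 2.87 ± 0.444 RPM in S/L.

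Among relatives of the 5 factors, 6 of 9 tested genes rose in 2i/L relative to S/L and 1 fell, where 39.1% and 24.4% of all genes did. The median was 1.34, or 1.03 after centring. Elf3, an epithelial ETS factor related to Elf5, was at 72.5, 71.9 and 82.8 RPM in 2i/L, 24.0, 16.5 and 17.4 RPM in MEKi/L, 8.66 and 12.2 RPM in GSK3i/L 24 d, 9.34, 13.8 and 10.3 RPM in GSK3i/L and 13.1, 17.5 and 15.1 RPM in S/L. Like Tfap2a it stood above all other libraries in each 2i/L library, by log2 fold changes of 2.32 ± 0.21 over S/L (limma adjusted p = 1.0e-06), 1.99 ± 0.21 over MEKi/L (adjusted p = 3.8e-05) and 2.78 ± 0.21 over GSK3i/L (adjusted p = 1.8e-06). Elf4, another ETS factor, rose in all 3 media, to 28.0 ± 0.77 RPM in 2i/L, 18.5 ± 5.03 in MEKi/L and 5.91 ± 2.75 RPM in GSK3i/L, against 0.93 ± 0.327 RPM in S/L. Tfap2c, the AP-2 gene shared by trophoblast and germ cells, was higher in both media with the MEK inhibitor, with 77.9 ± 9.92 RPM in 2i/L, 63.1 ± 8.22 in MEKi/L, 26.6 ± 3.98 RPM in GSK3i/L and 30.7 ± 3.34 RPM in S/L. It passed against S/L in 2i/L (1.34 ± 0.19, adjusted p = 4.5e-05) and MEKi/L (1.04 ± 0.19, adjusted p = 0.00069), and between MEKi/L and GSK3i/L (1.25 ± 0.19, adjusted p = 0.00031).

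Of 29 other keratin genes listed only 7 were tested, and in 2i/L relative to S/L 2 of them rose and 2 fell, with 3 and 1 in MEKi/L and 0 and 1 in GSK3i/L. Of all genes, 39.1% rose and 24.4% fell in 2i/L, 26.1% and 14.7% in MEKi/L, and 16.8% and 14.4% in GSK3i/L. Krt17, a type I keratin, fell like Krt18 and Krt19 in 2i/L (2.31 ± 0.586 RPM against 10.9 ± 1.64 RPM in S/L, −2.25 ± 0.29, limma adjusted p = 2.2e-05) and in GSK3i/L (4.31 ± 1.38 RPM, −1.38 ± 0.29, adjusted p = 0.0033). Krt42, also type I, went the other way, to 37.0 ± 8.69 RPM in 2i/L and 47.5 ± 11.0 in MEKi/L, against 16.9 ± 2.81 RPM in S/L (1.12 ± 0.22 and 1.48 ± 0.22). Its 2i/L call was lost with the score as a covariate (0.76, adjusted p = 0.06). Krt10 was lower in 2i/L, at 4.74 ± 0.416 RPM against 15.2 ± 2.58 RPM in S/L (−1.67 ± 0.35, limma adjusted p = 0.00091). This was lost with the score as a covariate (−0.45, adjusted p = 0.33). At 24 days of GSK3i/L Krt10 was at 19.8 and 20.6 RPM. The epidermal keratin Krt5 had no read outside MEKi/L, where it was at 0.204 ± 0.149 RPM.

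Of 17 tested genes for other intermediate filaments and their linkers, 8 rose in 2i/L relative to S/L and 2 fell, where 39.1% and 24.4% of all genes did. The median was 0.51 beside 0.28 over all genes. With the score of long and short genes as a covariate, 2 rose and 3 fell, at a median of −0.23, and 31.6% of all genes passed. Dsg2, a desmosomal cadherin, was at 109 ± 6.32 RPM in 2i/L against 15.9 ± 1.38 RPM in S/L (2.79 ± 0.23, limma adjusted p = 5.2e-07). Dsp, the plakin that ties keratin filaments to desmosomes, was at 51.8, 55.2 and 73.0 RPM in 2i/L, 43.8, 12.7 and 16.1 RPM in MEKi/L, 2.81 and 3.52 RPM in GSK3i/L 24 d, 8.25, 6.80 and 1.57 RPM in GSK3i/L and 10.9, 11.5 and 13.2 RPM in S/L. Its rise over S/L (2.33 ± 0.53, adjusted p = 0.0017) was lost with that covariate (0.27, adjusted p = 0.66), and the high MEKi/L library is replicate 1, whose score stands apart.

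Surface ectoderm and early epidermis genes, a set of other cells that express AP-2 factors and keratins, had lower summed levels without serum. Of 8 tested, 5 fell and 1 rose in both 2i/L and MEKi/L, and 5 fell and 0 rose in GSK3i/L, where 24.4%, 14.7% and 14.4% of all genes fell, with the same counts after centring and quantile normalization. Their summed level was 84.1 to 99.7 RPM in 2i/L, 93.6 to 108.5 RPM in MEKi/L, 59.8 to 61.8 RPM in GSK3i/L 24 d, 49.5 to 65.0 RPM in GSK3i/L and 158.2 to 198.6 RPM in S/L. Grhl2, an epithelial transcription factor, was at 4.12, 2.61 and 7.01 RPM in 2i/L, 2.98, 2.38 and 4.08 RPM in MEKi/L, 4.71 and 3.70 RPM in GSK3i/L 24 d, 7.25, 4.02 and 5.79 RPM in GSK3i/L and 22.8, 17.8 and 26.7 RPM in S/L. At 8 days its fall and those of Krt18 and Krt19 went together. At 24 days of GSK3i/L Grhl2 stayed low, as did Krt19 at 2.73 and 3.08 RPM, while Krt18 was at 25.6 and 11.3 RPM. Trp63, the factor that defines stratified epithelium, had a mean of 0.022 RPM in 2i/L and no read elsewhere. The part of such cells in the keratin results was not tested. Grhl3 rose in 2i/L (2.07 ± 0.20, limma adjusted p = 2.0e-06) and MEKi/L (2.23 ± 0.20, adjusted p = 2.5e-06).

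**Figure D5:**
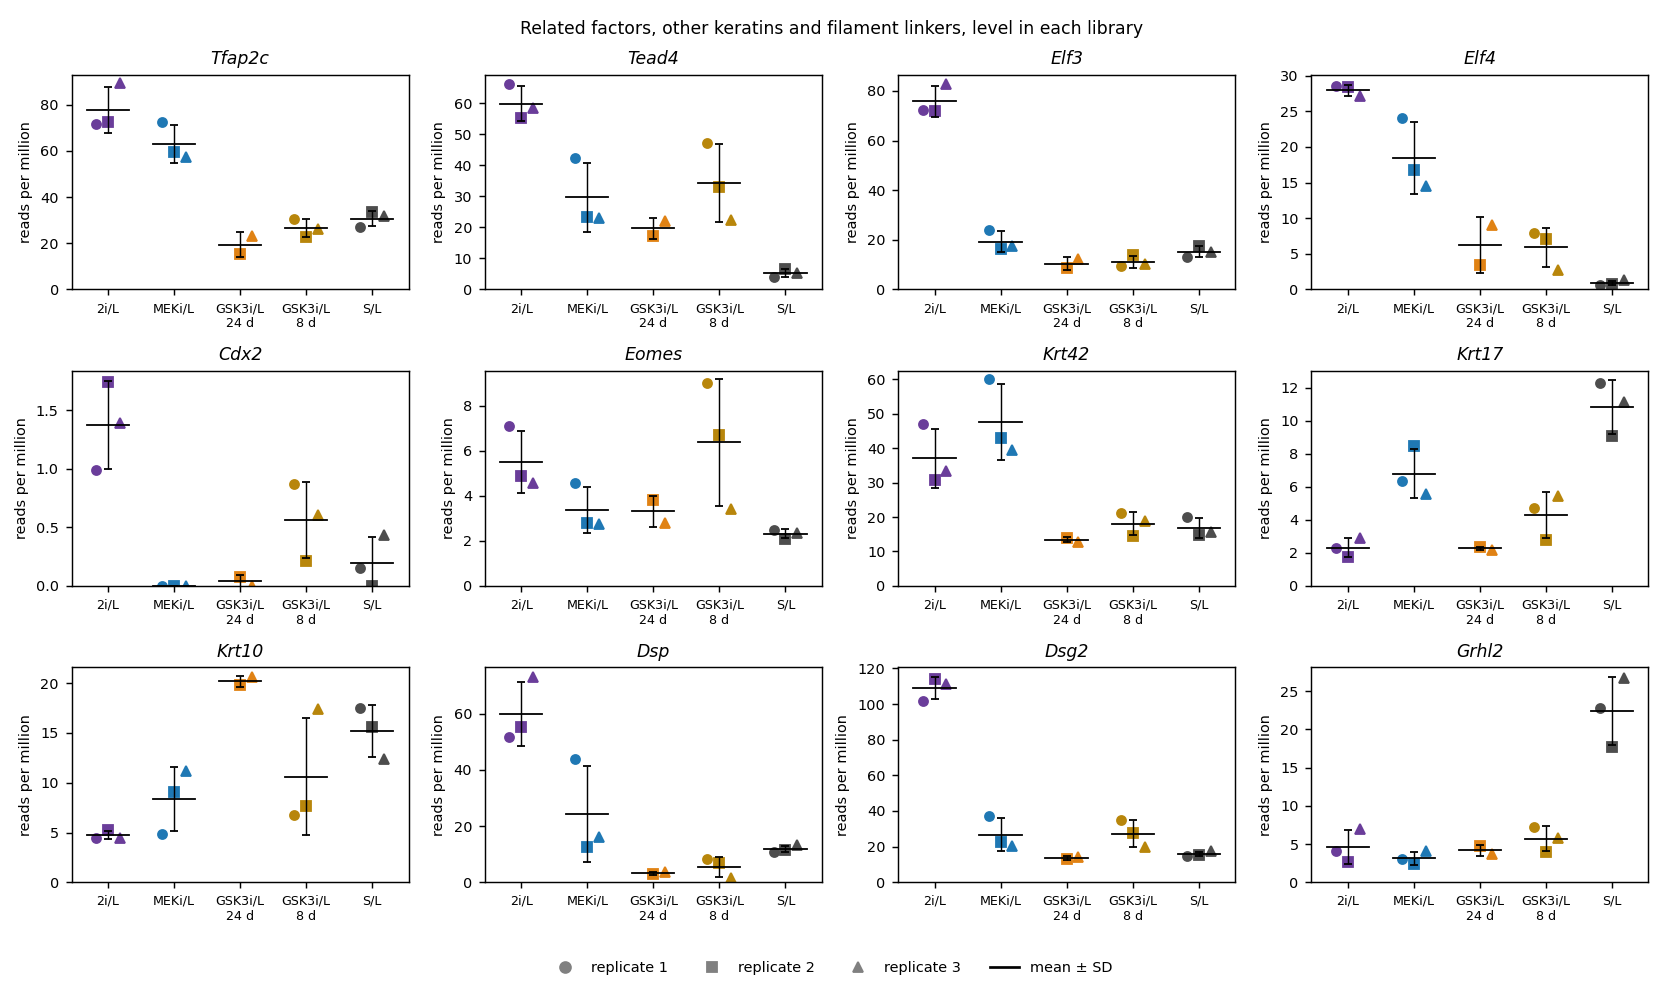
Level in RPM (y axis, linear, own scale per gene) by medium (x axis) of 12 related genes: factors, other keratins, the linkers Dsp and Dsg2, and Grhl2. Points are libraries and bars are means ± SD. Elf3 is between 71.9 and 82.8 RPM in 2i/L and at most 24.0 RPM elsewhere, and Grhl2 is between 17.8 and 26.7 RPM in S/L and at most 7.25 RPM elsewhere.

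Over the 14 libraries, the genes whose log2 values were most like those of Tfap2a were Piga (Pearson's r = 0.975), Ccbe1 (0.958) and Slc16a9 (0.953), among 11407 tested genes that reached a mean of 5 RPM in some group. For Krt18 they were Npl (0.954), Ppp1r11 (0.929) and Car4 (0.928), and for Krt19 Lfng (0.955), Slc47a1 (0.941) and Mrps31 (0.938). Car4 shared with Krt18 the higher level at 24 days of GSK3i/L, with means of 0.0441 RPM in 2i/L, 0.596 in MEKi/L, 11.4 RPM in GSK3i/L 24 d, 0.217 RPM in GSK3i/L and 16.2 RPM in S/L. Krt8 had weaker likenesses, led by Bcl2l1 (0.853), as had Krt7, led by C2 (0.858). Gata2 was most like Ip6k1 (0.918) and Gata3 most like Spnb3 (0.935). These values describe 14 libraries that share 5 media, depth and coverage, and the best of many candidates is high by choice.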

How the data were processed

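Poly(A) RNA of 14 libraries was read as 50-base single ends from strand-specific libraries, per the labels' protocols. Trimming with Trim Galore 0.6.5, HISAT2 and build GRCm38 are named, per the submitters' processing notes, and the deposited table's name points to SeqMonk. Neither the annotation nor the strand setting behind the read counting is stated in the sources used here. Deposited by the authors was 1 value per gene and library, the log2 of RPM. In 8 columns at least 99.96% of linear values were whole multiples of 1 read (within 0.02 read), with 0 reads at 0.9 of a read. The other 6 columns (GSK3i/L at 8 days and S/L) had been matched to 1 distribution, differing by at most 0.083 above 2 RPM, and their depth was approximated from genes near 100 reads and read numbers of low genes from the order of their levels. Comparisons across both kinds of column, all but GSK3i/L against S/L and those among 2i/L, MEKi/L and GSK3i/L 24 d, therefore mix these treatments.

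The log2 values were fitted with limma 3.58.1 in R 4.3.3 (trend, robust), group being the only term, over all 14 libraries. Tested were 14980 genes that reached 0.5 RPM or more in 3 or more libraries, with Benjamini-Hochberg adjustment over all of them. A count model was not used because the values are on a log2 scale. Zero reads count as 0 RPM in levels. The test was checked on simulated counts with the same relative spread for all genes. Those counts held no matched columns, no differing score and no outlying libraries, so the check does not cover these features. Members and the 10 gene lists (154 of 158 entries in the table) were chosen with earlier results of these data known. Named were all members, up to 4 passing list genes of at least 5 RPM per list and comparison with the largest changes, and the 3 genes most like each member. Cdx2, Prl3d1, Prl3b1, Tpbpa, Krt5 and Trp63, and levels beside those that passed, were named as defining markers after their values were seen. Alternatives were the filter, log2(RPM + 0.5), quantile normalization, centring, the replicate block, the score of long and short genes as a covariate, limma without trend, fits of 2 groups and leaving out libraries. Leaving out MEKi/L and GSK3i/L replicates 1 (score apart), or GSK3i/L replicate 2 and 2i/L replicate 3 (high Gata2), was chosen after seeing the data. Promoter letters come from RefSeq on GRCm38.p6, where 7 of the 9 genes had an entry. All 9 symbols also stand in a reference table of gene names.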

Additional observations from a re-analysis of the deposited data

How the results depend on the processing

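Over fits that left out 1 library, 243 of 287 member values kept direction and side of the threshold, and over the other alternatives 430 of 476. Members that passed numbered, without single libraries, 3 to 4 in MEKi/L against S/L, 4 to 5 in GSK3i/L against S/L, 3 to 5 in 2i/L against S/L, 1 to 3 in 2i/L against MEKi/L and against GSK3i/L, 1 to 2 in MEKi/L against GSK3i/L and 0 to 1 at 24 against 8 days. With the score as a covariate they were 3 in 2i/L against S/L, 1 in 2i/L against GSK3i/L (also 1 after centring), 2 in MEKi/L against GSK3i/L (also 2 on log2(RPM + 0.5)) and 0 at 24 against 8 days. The last was also 0 with the replicate block, without trend, without both libraries of differing score and with 2 groups alone, where limma called 1 otherwise. In 2i/L against MEKi/L the count was 1 after quantile normalization, 1 without both high-Gata2 libraries, 4 without both libraries of differing score and 4 with 2 groups alone. The share of all genes that passed in 2i/L against MEKi/L moved as well. It was 12.9% in the main fit, 10.6% after quantile normalization and 6.7% without both high-Gata2 libraries. Without both libraries of differing score it was 36.7%, and with 2 groups alone 16.1%. Why these counts differ was not tested. Gata3, Krt8 and Gata2 did not pass in 2i/L against MEKi/L in the main fit (limma adjusted p = 0.098, 0.13 and 0.23). Their lowest limma adjusted p in the other alternatives were 0.025, 0.03 and 0.036.

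Directions turned only for values that had not passed. Over fits without 1 library, Gata2 in GSK3i/L against S/L ranged from −0.62 (without GSK3i/L replicate 2, and likewise without both high-Gata2 libraries) to 2.28. In MEKi/L against GSK3i/L it ranged from −1.28 to 1.62 (the same 2 fits), with 0.02 and 0.11 without MEKi/L replicates 2 and 3. Krt8 in 2i/L against S/L was −0.25 after quantile normalization, −0.25 after centring, −0.57 with the score, and from −0.34 (without S/L replicate 2) to 0.39 without single libraries. Krt7 in GSK3i/L against S/L ranged from −0.13 (without S/L replicate 2) to 1.00, and Krt18 in MEKi/L against GSK3i/L from −0.05 (without MEKi/L replicate 2) to 0.38. At 24 against 8 days Tfap2a was 0.07 after quantile normalization, 0.04 after centring, 0.02 with the replicate block, 0.02 without both libraries of differing score and from −0.19 to 0.04 without single libraries. There Krt7 ranged from −0.10 (without 24-day replicate 3) to 0.67, and Krt8 from −0.28 (without 24-day replicate 2) to 0.47; a lone 24-day library is assumed to vary like the other groups.

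Same-numbered libraries of different groups did not all deviate together: 8 of 26 correlations of deviations exceeded 0.1 (median 0.0365), and 7 of 14 libraries correlated best with their own number. The block ended the Krt18 call at 24 against 8 days (1.39, adjusted p = 0.059) and added Krt8 in MEKi/L against S/L (adjusted p = 0.042), and it changed no other member's call. Depth limits Elf5 and Hand1 throughout and Gata3 in GSK3i/L. The score does not overlap between 2i/L and S/L, so its part there cannot be told apart from the medium.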

Other observations

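The other 4 sets of marker genes cover cell types in which GATA, HAND or AP-2 factors also act. Their counts against S/L are to be read beside the shares of all genes. These were 39.1% higher and 24.4% lower in 2i/L, 26.1% and 14.7% in MEKi/L, and 16.8% and 14.4% in GSK3i/L. Primitive endoderm, which shares Gata4 and Gata6 with the trophoblast's GATA family, had 11 tested genes: 3 rose and 4 fell in 2i/L relative to S/L, 4 and 1 in MEKi/L, and 3 and 0 in GSK3i/L. Col4a1, a basement membrane collagen, was at 7.95 ± 0.262 RPM in 2i/L, 126 ± 61.0 in MEKi/L, 37.6 ± 22.1 RPM in GSK3i/L and 21.6 ± 2.63 RPM in S/L. Of 9 tested genes of extraembryonic and early mesoderm, 5 rose and 2 fell in 2i/L, 3 and 4 in MEKi/L, and 5 and 3 in GSK3i/L, each relative to S/L. Bmp4, a ligand that induces trophoblast and mesoderm genes, was at 2.55 ± 1.66 RPM in 2i/L, 2.57 ± 1.18 in MEKi/L, 39.9 ± 9.41 RPM in GSK3i/L and 12.2 ± 2.77 RPM in S/L. The fall in both media with the MEK inhibitor passed (limma log2 fold change −2.43 ± 0.40, adjusted p = 0.00018, and −2.32 ± 0.40, adjusted p = 0.00054), as did the rise in GSK3i/L (1.71 ± 0.40, adjusted p = 0.0069).

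Of 7 tested blood and endothelial genes, where Gata2 is also active, 3 rose and 2 fell in 2i/L, 3 and 0 in MEKi/L and 3 and 1 in GSK3i/L relative to S/L. Kit, the stem cell factor receptor, was at 441 ± 8.74 RPM in 2i/L, 190 ± 37.2 in MEKi/L, 96.9 ± 21.5 RPM in GSK3i/L and 30.3 ± 4.09 RPM in S/L. The neural crest set, where Tfap2a acts in the embryo, had 5 tested genes, of which 0 rose and 1 fell in 2i/L, 1 and 1 in MEKi/L, and 1 and 0 in GSK3i/L. Foxd3, which ES cells also express, was higher in MEKi/L than in GSK3i/L (50.1 ± 12.1 against 24.8 ± 14 RPM, 1.13 ± 0.30, adjusted p = 0.018 by limma), a call lost with these 2 groups alone (adjusted p = 0.1) and without GSK3i/L replicate 2 (adjusted p = 0.091), GSK3i/L replicate 3 (0.05) or MEKi/L replicate 1 (0.07). Foxd3 was also among the 3 genes closest to Gata3 in pattern (Pearson's r = 0.925 over 14 libraries). No count of a set against S/L was tested as a set, and each is to be read beside the shares of all genes given above.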
